A study of Mus musculus with 16 samples.

Results

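Two-pore and ATP-sensitive potassium channels of the mouse atrium were followed through 7 genes, chosen by name from these channel families, among 30141 genes listed with 1 symbol. They are Kcnk3, Kcnk1, Kcnk2, Abcc9, Kcnj8, Abcc8 and Kcnj11, each with 1 row of the array. The arrays held atrial RNA of 10-week-old male wild-type C57BL/6 mice, with 4 arrays for each of 4 groups. These were day 1, day 3 and day 7 after myocardial infarction by a ligature of the left anterior descending coronary artery, and sham surgery. The infarct made by this ligation lies in the left ventricle, so the atria are remote from it. The time from sham surgery to tissue collection, the atrium used and whether each array was a separate animal are not stated. P-values therefore measure the spread between arrays, which may be partly technical. Arrays carry the numbers of the labels, 11 to 14 on day 1, 31 to 34 on day 3, 71 to 74 on day 7 and 1 to 4 in sham. The labels name no transgene and no drug in any group.

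Two-pore channels are potassium leak channels that are open near the resting potential and help to hold it. Kcnk3 encodes TASK-1, an acid-sensitive channel that in the human heart is found mainly in the atria. Kcnk1 encodes TWIK-1 and Kcnk2 encodes TREK-1, which opens on stretch of the membrane. ATP-sensitive channels join a pore of the inward rectifier family, Kir6.1 from Kcnj8 or Kir6.2 from Kcnj11, with a regulatory sulphonylurea receptor, SUR1 from Abcc8 or SUR2 from Abcc9. They close when ATP is plentiful and open when energy runs short, which shortens the action potential. In the mouse atrium the muscle channel is known mainly as SUR1 with Kir6.2, in ventricular muscle as SUR2 with Kir6.2, and in vascular smooth muscle and pericytes as SUR2 with Kir6.1. In the mouse assembly GRCm38.p6 the partners are neighbours among protein-coding genes, with Kcnj8 next to Abcc9 on chromosome 6 and Kcnj11 next to Abcc8 on chromosome 7.

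Abcc9 and Kcnj8 lie side by side and fell together on days 1 and 3, so their start regions are shown, as listed by RefSeq for GRCm38.p6. RefSeq entries were at hand for 4 of the 7 genes, and these 2 are printed because both genes changed. Each runs 5′ to 3′ on the minus strand, from 250 bases before the gene start to 50 after it. The Abcc9 region is chr6:142702225-142702524 and the Kcnj8 region is chr6:142571565-142571864. Capitals mark matches to the motifs searched.
Abcc9: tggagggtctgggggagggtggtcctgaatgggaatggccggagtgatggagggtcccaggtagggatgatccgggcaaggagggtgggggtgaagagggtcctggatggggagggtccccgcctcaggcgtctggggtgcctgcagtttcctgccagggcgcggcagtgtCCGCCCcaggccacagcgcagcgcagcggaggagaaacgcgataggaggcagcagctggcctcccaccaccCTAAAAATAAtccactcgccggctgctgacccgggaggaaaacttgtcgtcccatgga
Kcnj8: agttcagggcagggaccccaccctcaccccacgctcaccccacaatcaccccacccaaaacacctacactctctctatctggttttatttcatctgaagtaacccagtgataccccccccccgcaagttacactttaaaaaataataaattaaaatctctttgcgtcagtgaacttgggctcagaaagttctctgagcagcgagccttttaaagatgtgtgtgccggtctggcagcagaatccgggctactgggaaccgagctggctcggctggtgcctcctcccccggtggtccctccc
The second stretch of capitals for Abcc9, bases 243 to 252, is a match to the MEF2 consensus, the site of a muscle transcription factor family. The consensus searched is its own reverse complement, so any match reads on both strands. The first stretch of capitals, bases 172 to 177, is a GC box (GGGCGG) on the opposite strand. Of 32851 RefSeq start regions of this length, 3.19% hold a MEF2 match and 35.7% a GC box on either strand. The Kcnj8 region held 0 matches to these motifs or to the other 5 searched on both strands. Those were AGATAA for GATA factors, TATAAA for the TATA box, GTAAACA for FOXO factors, ACGTG for the hypoxia response and the CArG box by name. They occur in 11.2%, 13.6%, 3.65%, 19.6% and 1.63% of start regions. The 2 regions had GC contents of 65.7% for Abcc9 and 53.3% for Kcnj8, against a median of 52.7%. A match describes the letters only, and binding was not measured.

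The deposited values are log2 signals whose scaling is not stated, and differences are therefore kept on the log2 scale. Day 1 array 13 and day 3 array 31 stood apart. Control separation, the area under the receiver operating curve between positive and negative control rows, was 0.755 and 0.743 in them and 0.793 to 0.825 in the other 14 arrays. Their median correlation within the group was 0.987 and 0.955, against at least 0.994 elsewhere. These 2 arrays held the lowest value of their group for every one of the 5 channel genes that fell. Differences were tested with limma across 18419 genes with Benjamini-Hochberg adjustment, and "called" or "passed" means an adjusted p under 0.05.

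After infarction 5 genes fell and 2 did not pass the test against sham on any day. Kcnk3, Abcc9, Kcnj8, Kcnj11 and Abcc8 were lower than in sham on days 1 and 3, and all but Kcnj8 passed the test on day 7. That is 5 of 7 on day 1, where 22.2% of all tested genes were called lower, 5 of 7 on day 3 against 20.2%, and 4 of 7 on day 7 against 9.92%. The 5 genes did not overlap with sham on days 1 and 3, a pattern that 24.2% and 20.5% of tested genes share. On day 7, 4 of them did not overlap, against 18.4%. A moderated F test over the 3 comparisons called the same 5 genes, and 52.3% of all tested genes. All 5 stayed called on days 1 and 3 when arrays 13 and 31 were left out, and 5 were then called on day 7. With each array centred on its median, 2 of the 4 day 7 calls were lost, Abcc8 at -0.60 (adjusted p 0.104) and Kcnj11 at -0.86 (adjusted p 0.0613). In bulk tissue, fewer cells of a type and less RNA per cell cannot be told apart.

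**Figure D1:**
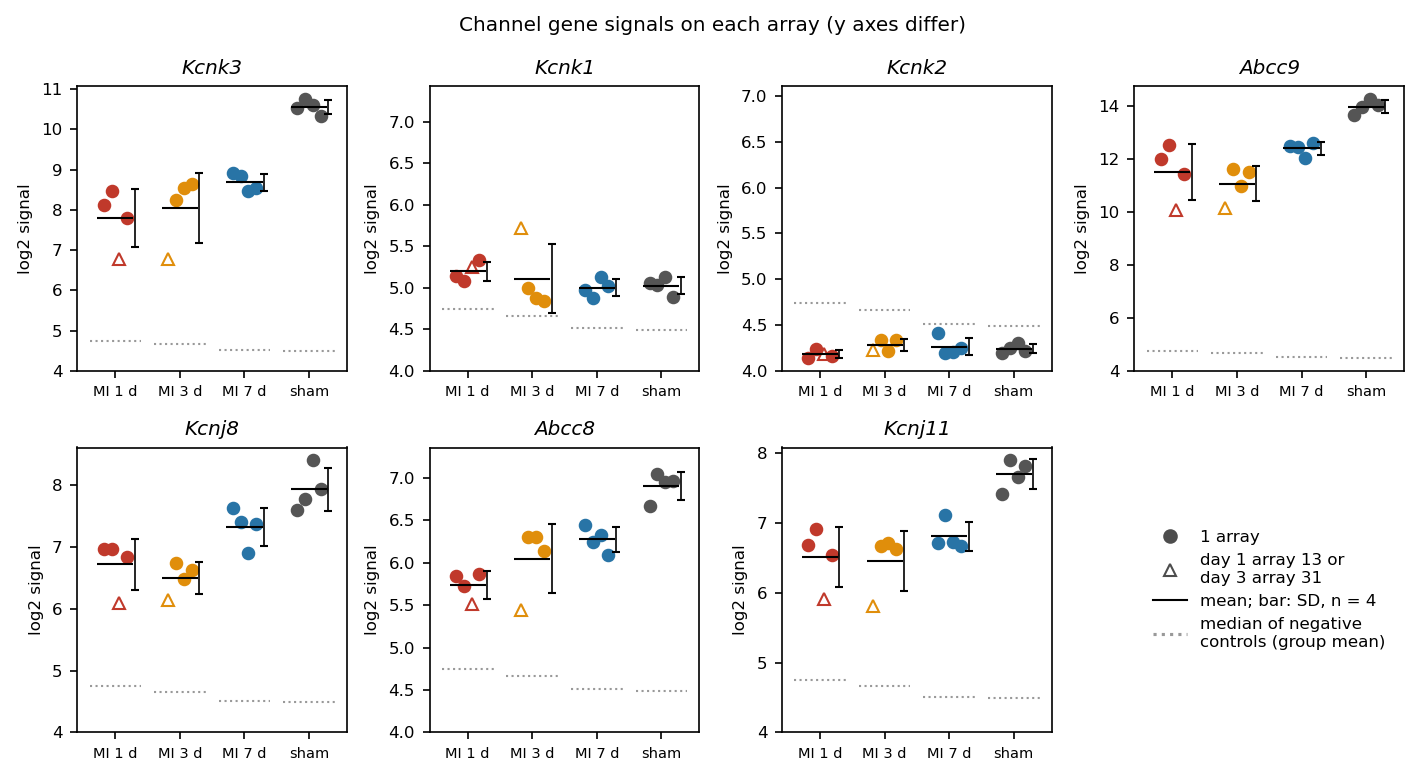
Log2 signal of each channel gene on every array (points), by group, with the group mean (line) and SD (bar, n = 4). Open triangles are day 1 array 13 and day 3 array 31, and the dotted line is the median of the negative controls. Kcnk3 and Abcc9 lie well below sham on all 3 days, Kcnk1 overlaps sham and Kcnk2 lies below the dotted line.

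Kcnk3 had the largest difference of the 7 genes on days 1 and 7. Its log2 signal was 8.12, 8.46, 6.79 and 7.80 on day 1, 6.77, 8.24, 8.54 and 8.63 on day 3, and 8.90, 8.83, 8.47 and 8.55 on day 7, against 10.53, 10.76, 10.61 and 10.32 in sham. No infarction array reached the lowest sham array, and arrays 13 and 31 were the 2 lowest of all. The group means were 7.80 ± 0.72 on day 1, 8.05 ± 0.87 on day 3 and 8.69 ± 0.21 on day 7, against 10.56 ± 0.18 in sham (SD, n = 4 each). The log2 difference from sham was -2.76 ± 0.38 (SE) on day 1, with an adjusted p of 8.38e-05. It was -2.51 ± 0.38 on day 3 (adjusted p 0.000137) and -1.87 ± 0.38 on day 7 (adjusted p 0.00281). Of all tested genes, 0.239%, 0.532% and 0.157% had a difference as low or lower on days 1, 3 and 7. The day 7 level lay 0.89 above that of day 1 and the 2 groups did not overlap, but the adjusted p was 0.0917. Without array 13 the difference was 0.56 (adjusted p 0.276), and without arrays 13 and 31 together it was also 0.56 (adjusted p 0.0164). Without array 31 alone the adjusted p was 0.0142.

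Neither Kcnk1 nor Kcnk2 passed the test against sham on any day. Kcnk1 had 5.14, 5.08, 5.25 and 5.34 on day 1, 5.72, 5.00, 4.88 and 4.84 on day 3, and 4.98, 4.88, 5.13 and 5.02 on day 7, against 5.06, 5.03, 5.13 and 4.89 in sham. The value 5.72 came from array 31, and every infarction group overlapped sham. Its log2 differences from sham were 0.18 (95% interval -0.15 to 0.50), 0.08 (-0.24 to 0.41) and -0.02 (-0.35 to 0.31) on days 1, 3 and 7, with adjusted p-values of 0.344, 0.671 and 0.957. Kcnk1 was above the median of the negative controls on all 16 arrays but above their 95th percentile on 0. Its interval is therefore one for a dim signal. Kcnk2 lay between 4.14 and 4.41 and below the negative control median on all 16 arrays, so it was not above background in any group and no size can be read from it.

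Abcc9, the receptor SUR2, was the brightest of the 7 rows, above the 95th percentile of the negative controls on all 16 arrays. It had 12.01, 12.56, 10.06 and 11.45 on day 1, 10.17, 11.63, 10.99 and 11.51 on day 3, and 12.52, 12.45, 12.06 and 12.61 on day 7, against 13.67, 13.96, 14.28 and 14.04 in sham. All 12 infarction arrays were below all 4 sham arrays. Means were 11.52 ± 1.07, 11.08 ± 0.67 and 12.41 ± 0.24 on days 1, 3 and 7, against 13.99 ± 0.25 in sham (SD, n = 4 each). The log2 difference was -2.47 ± 0.43 (SE, adjusted p 0.000518) on day 1 and -2.91 ± 0.43 (adjusted p 0.000112) on day 3, the largest of the 7 on that day. It was -1.58 ± 0.43 (adjusted p 0.0158) on day 7. Day 7 lay 1.33 above day 3 without overlap, with an adjusted p of 0.0598. The adjusted p was 0.00208 with array weights, 0.0126 without array 13, 0.0392 without array 12 and 0.00936 without arrays 13 and 31 together. The other alternatives left this difference uncalled. Without day 1 array 12 or 13 the difference stayed 1.33 and only its SE was smaller (0.39 and 0.31). Without arrays 13 and 31 together it was 1.03.

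Kcnj8, the pore Kir6.1, had 6.97, 6.96, 6.10 and 6.84 on day 1, 6.15, 6.74, 6.47 and 6.63 on day 3, and 7.62, 7.40, 6.90 and 7.36 on day 7, against 7.60, 7.77, 8.41 and 7.94 in sham. Days 1 and 3 lay wholly below sham, and day 7 array 71 lay above sham 1. The log2 difference was -1.21 ± 0.23 (SE, adjusted p 0.000758) on day 1, -1.43 ± 0.23 (adjusted p 0.000169) on day 3 and -0.61 ± 0.23 (adjusted p 0.0632) on day 7. The day 7 difference passed the test without array 13 (adjusted p 0.0284), without array 31 (0.0396) or without sham 1 (0.0479). Without array 13 or array 31 the difference itself stayed -0.61. In 20 of 26 alternatives the day 7 difference stayed uncalled, with adjusted p-values up to 0.198. Kcnj8 was the 1 gene of the 7 called between days 7 and 3, where Abcc9 had a larger difference that was not called. Kcnj8 was 0.82 ± 0.23 higher on day 7 (adjusted p 0.0277), in a comparison that called 4.07% of all tested genes higher. That call was lost without day 3 array 31 (adjusted p 0.0539) or 33 (0.0554), and without day 7 array 71 (0.0878), 72 (0.0669) or 74 (0.0639). It was kept without arrays 13 and 31 together (0.0155).

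Kcnj11, the pore Kir6.2, had 6.69, 6.91, 5.91 and 6.55 on day 1, 5.82, 6.67, 6.71 and 6.63 on day 3, and 6.72, 7.12, 6.73 and 6.68 on day 7, against 7.41, 7.90, 7.66 and 7.81 in sham. All infarction arrays were below all sham arrays, and the 3 days overlapped each other. The log2 difference was -1.18 ± 0.23 (SE, adjusted p 0.00095) on day 1, -1.24 ± 0.23 (adjusted p 0.000546) on day 3 and -0.89 ± 0.23 (adjusted p 0.0103) on day 7.

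Abcc8, the receptor SUR1, had 5.85, 5.72, 5.51 and 5.87 on day 1, 5.45, 6.30, 6.30 and 6.14 on day 3, and 6.45, 6.24, 6.33 and 6.10 on day 7, against 6.67, 7.05, 6.95 and 6.96 in sham. No infarction array reached sham, and day 7 lay wholly above day 1. The log2 difference was -1.17 ± 0.16 (SE, adjusted p 9.21e-05) on day 1, -0.86 ± 0.16 (adjusted p 0.0008) on day 3 and -0.63 ± 0.16 (adjusted p 0.0121) on day 7. Abcc8 was the 1 gene of the 7 called between days 7 and 1, at 0.54 ± 0.16 higher (adjusted p 0.0282), where 13.7% of all tested genes were called higher. That call was lost without array 13 (adjusted p 0.0876), 71 (0.0807), 72 (0.0538) or 73 (0.0588), and kept without arrays 13 and 31 together (0.00216).

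Between days 3 and 1, 0 of the 7 genes passed the test, where 8.11% of tested genes were called in either direction. Without array 31, Abcc8 was 0.51 higher on day 3 than on day 1 (adjusted p 0.00314) and Kcnk1 was 0.30 lower, with a log2 difference of -0.30 (adjusted p 0.0115). Kcnk1 was dim, and the negative control medians ranged from 4.69 to 4.87 on day 1 and from 4.52 to 4.60 on day 3 arrays 32 to 34. How much of the Kcnk1 difference is a fall in background was not tested. Among the 5 falling genes, the 3 smaller differences on each day belong to the 3 dimmer rows. Abcc8 and Kcnj11 passed the 95th percentile of the negative controls on 0 of 16 arrays and Kcnj8 on 1. Whether signal near background compresses their differences was not tested. The same percentile was passed by Kcnk3 on 1 of 4 arrays on day 1, 3 of 4 on day 3, 4 of 4 on day 7 and 4 of 4 in sham.

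**Figure D2:**
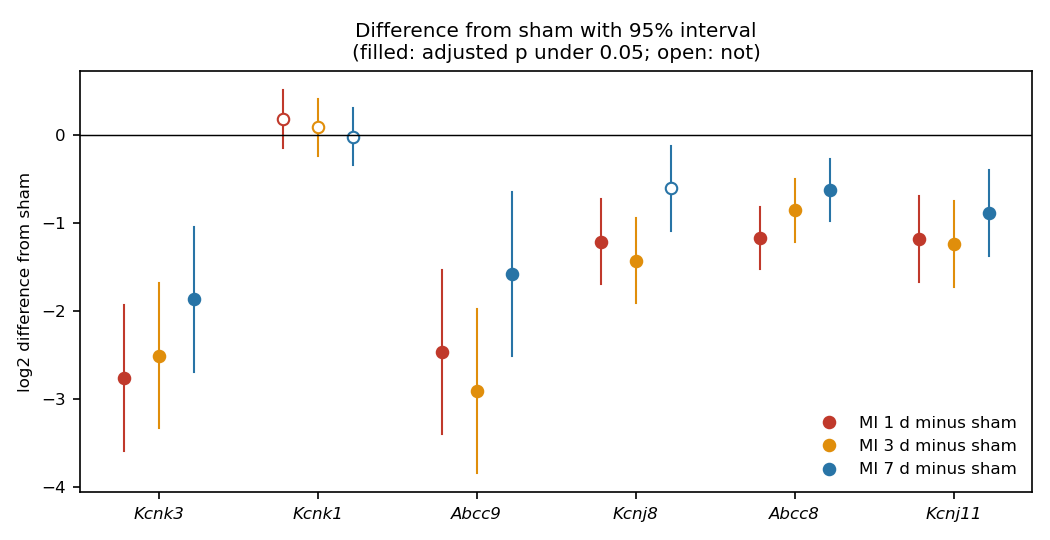
Log2 difference from sham (y axis) of 6 channel genes on days 1, 3 and 7, with 95% intervals from the limma fit. Filled points passed an adjusted p under 0.05 and open points did not, and Kcnk2, not above background, is not drawn. Kcnk3 and Abcc9 lie between -2.91 and -1.58 on all days, and Kcnk1 lies near 0.

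Among the genes of the ATP-sensitive channels, Abcc9 moved by more than each of the subunit genes it was paired with. Differences between 2 genes were taken within each array, where an offset of the array cancels, and compared with sham by an exact two-sided permutation test. With 4 arrays against 4 there are 70 splits and the smallest p is 0.0286. There were 18 such tests over 6 pairs, and a p of 0.0286 became 0.0396 after adjustment over them. The pairs include Kcnk3 minus Kcnk1 and Kcnk3 minus Kcnk2, which set Kcnk3 against rows at or near background. Both had a p of 0.0286 on every day, and the adjusted p rests partly on them. Levels of different rows are not compared, only how their difference changed.

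Abcc9 fell by more than Abcc8 on all 3 days. The log2 signal of Abcc9 minus that of Abcc8 averaged 5.78 ± 0.97 on day 1, 5.03 ± 0.38 on day 3 and 6.13 ± 0.32 on day 7, against 7.08 ± 0.18 in sham (SD, n = 4 each). The changes were -1.30, -2.05 and -0.95, each without overlap with sham and with an exact p of 0.0286 (adjusted 0.0396). Without arrays 13 and 31 the day 1 change was -0.89 and the day 3 change -1.95.

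Abcc9 also fell by more than its neighbour Kcnj8. Kcnj8 minus Abcc9 was 1.25, 1.48 and 0.97 higher on days 1, 3 and 7 than in sham, with no overlap and an exact p of 0.0286 on each day (adjusted 0.0396). The 2 pore genes, Kcnj8 and Kcnj11, did not pass this test against each other. Their difference changed by -0.03, -0.19 and 0.28 on days 1, 3 and 7, with exact permutation p-values of 0.943, 0.486 and 0.286. Kcnj11 minus Abcc8, the pair known from mouse atrial muscle, changed by -0.01 on day 1 (exact p 0.857) and by -0.26 on day 7 (exact p 0.171). On day 3 it fell to 0.41 ± 0.06, against 0.79 ± 0.08 in sham (SD, n = 4 each), with an exact p of 0.0286 (adjusted 0.0396). These pairs include dim rows, and unequal RNA and unequal signal range cannot be told apart in them.

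**Figure D3:**
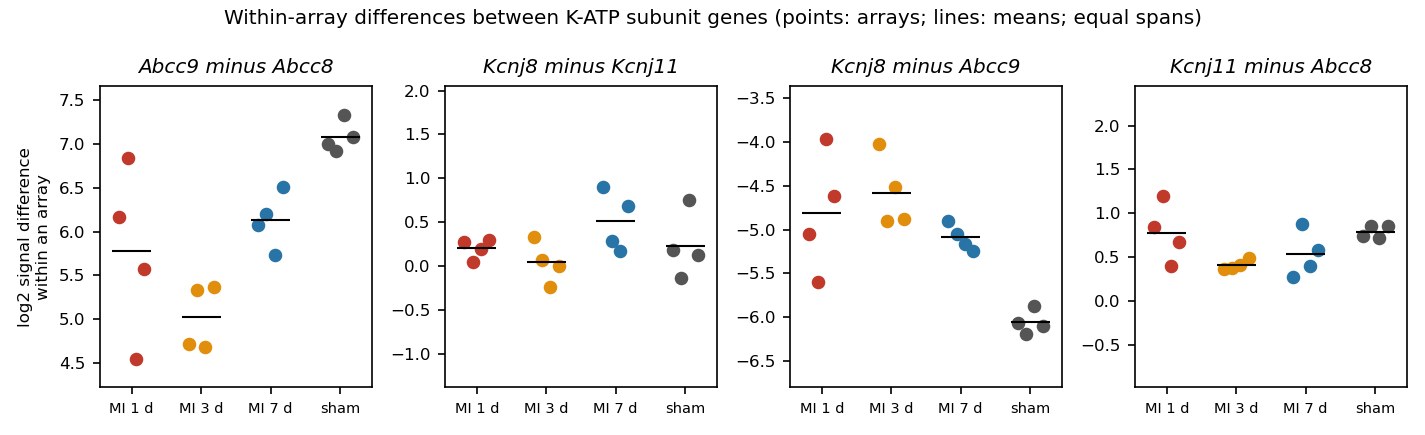
Within-array log2 differences between subunit genes of the ATP-sensitive channels (y axis), 1 point per array and a line at each group mean, with y axes of equal span. Abcc9 minus Abcc8 is lower and Kcnj8 minus Abcc9 is higher than in sham on all 3 days, whereas Kcnj8 minus Kcnj11 overlaps sham.

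Markers of several cell types also differed from sham. Of 15 general cardiomyocyte markers 7, 9 and 3 were lower and 0 higher on days 1, 3 and 7, with medians of -0.77, -1.12 and -0.56. The medians over all tested genes were 0.06, 0.08 and -0.01. The mean level of the 12 markers not near the top of the scale ranged over arrays from 12.3 to 13.5 on day 1, 11.4 to 13.3 on day 3 and 13.4 to 13.6 on day 7, against 13.8 to 14.3 in sham. Arrays 13 and 31 had the lowest levels, 12.3 and 11.4. Of 9 tested atrial cardiomyocyte markers 6, 6 and 0 were lower and 0 higher, with medians of -1.33, -1.50 and -0.29. Among them Nppa had a mean of 19.9 in every group, at the top of the scale, where a change may not show. These 9 were above the negative control median on all 16 arrays, and Bmp10, also on that list, did not pass the filter on dim genes. Of 5 ventricular cardiomyocyte markers 4, 5 and 2 were lower and 0 higher. All 6 neutrophil markers were higher on days 1 and 3 and 0 on day 7, and 6, 8 and 7 of 8 macrophage markers were higher on days 1, 3 and 7. Across all tested genes 24.9%, 23.5% and 14.9% were called higher on days 1, 3 and 7, and these shares and those called lower (22.2%, 20.2% and 9.92%) are the background of every list count here. The mean neutrophil level ranged from 9.90 to 11.6 on day 1, 6.42 to 11.2 on day 3 and 4.79 to 4.98 on day 7, against 4.50 to 4.67 in sham, and its highest day 3 value was that of array 31. The mean macrophage level ranged from 11.0 to 11.5, 11.0 to 12.5 and 11.1 to 12.3 on days 1, 3 and 7, against 8.67 to 8.90 in sham. Of 7 fibroblast markers 0 were higher and 5 lower on day 1, 2 higher and 1 lower on day 3, and 5 higher and 1 lower on day 7, with medians of -0.93, 0.23 and 1.92. Their mean level ranged from 9.19 to 10.4 on day 1, 10.3 to 12.1 on day 3 and 13.0 to 13.6 on day 7, against 10.6 to 10.8 in sham. Of 9 endothelial markers 1 was higher and 3 lower on day 1, 2 higher and 0 lower on day 3, and 2 higher and 0 lower on day 7, with medians of -0.17, 0.03 and 0.55. Their mean level ranged from 9.14 to 9.60, 9.32 to 10.1 and 9.89 to 10.4 on days 1, 3 and 7, against 9.53 to 9.67 in sham. The part of these cell types in the channel results was not tested beyond the comparison with marker levels that follows.

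Kcnk3 and Abcc9 fell by more than the mean of 12 cardiomyocyte markers of the same array, while none of the other 3 was called lower relative to it. Some single markers had differences of that size. Cmya5, a muscle costamere protein gene, had -2.19, -3.29 and -1.80 on days 1, 3 and 7, and Mybpc3, a myosin-binding protein gene of the sarcomere, had -2.55 on day 1. On day 1 the atrial markers Sln, Dkk3 and Myl7 had -5.09, -3.13 and -3.10, all of these called lower. The mean of the 12 cardiomyocyte markers was subtracted from every tested gene on each array, and limma was run again over all genes. Relative Kcnk3 was -1.62 on day 1 (95% interval -2.10 to -1.15, adjusted p 9.36e-05), -1.12 on day 3 (-1.60 to -0.65, adjusted p 0.000597) and -1.17 on day 7 (-1.65 to -0.70, adjusted p 0.00178). Relative Abcc9 was -1.33 on day 1 (-1.94 to -0.72, adjusted p 0.00204), -1.52 on day 3 (-2.13 to -0.92, adjusted p 0.000379) and -0.88 on day 7 (-1.49 to -0.28, adjusted p 0.0489). These 2 of the 5 genes were called lower on each day, where 1.86%, 1.41% and 0.445% of all tested genes were. This scaling moved the median of all tested genes to 1.20, 1.47 and 0.69, and 79.7%, 90.2% and 13.7% of them were called higher, so a relative value is to be read against that shift. The exact permutation p of both genes was 0.0286 on every day, and without arrays 13 and 31 the differences were -1.53, -1.17 and -1.17 for Kcnk3 and -1.08, -1.70 and -0.88 for Abcc9.

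Relative Kcnj8 was -0.08, -0.04 and 0.09 on days 1, 3 and 7, with 95% intervals from -0.76 to 0.60, -0.72 to 0.63 and -0.59 to 0.77. Relative Kcnj11 was -0.04, 0.15 and -0.19, with intervals from -0.59 to 0.50, -0.40 to 0.69 and -0.74 to 0.35. Relative Abcc8 was -0.03, 0.53 and 0.07, with intervals from -0.65 to 0.59, -0.09 to 1.15 and -0.56 to 0.69. The day 3 value of Abcc8 had an adjusted p of 0.0964 over all genes in the limma fit. By exact permutation test it was higher relative to the markers, with a p of 0.0286 (adjusted 0.0462 over 21 tests). Those 21 tests include Kcnk1 and Kcnk2, rows at or near background, which were higher relative to the falling marker mean on every day. Each had the same p of 0.0286, and the adjusted p rests partly on them, so it is not read as a pass. This Abcc8 value was 0.25 without array 31. With the median of the markers in place of their mean it was 0.35 (exact permutation p 0.714). On day 1 that median gave -1.13 for Kcnk3 and -0.84 for Abcc9 (exact permutation p 0.0286 each). It gave 0.42 for Kcnj8, 0.45 for Kcnj11 and 0.46 for Abcc8 on day 1, with exact permutation p-values of 0.171, 0.0571 and 0.286. The marker levels reach 18.1 on a scale that stops at 19.9, and whether the scale compresses differences of bright markers was not tested.

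**Figure D4:**
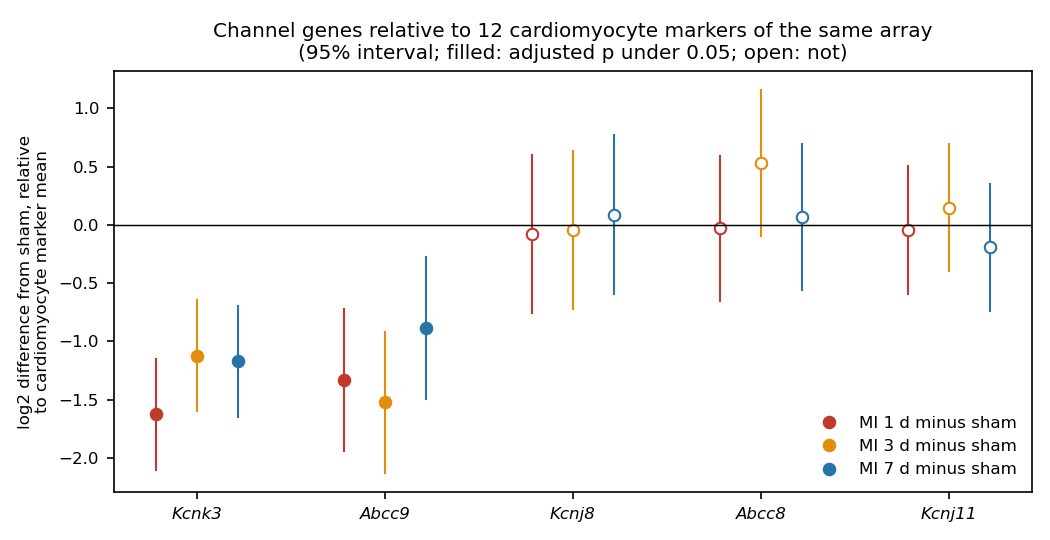
Log2 difference from sham on days 1, 3 and 7 after subtraction of the mean of 12 cardiomyocyte markers on each array (y axis), with 95% intervals. Filled points passed an adjusted p under 0.05 over all tested genes and open points did not. Kcnk3 and Abcc9 lie below 0 on all days, and the intervals of Kcnj8, Abcc8 and Kcnj11 include 0.

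Mural cells, the smooth muscle cells and pericytes of vessels, are a known site of Kcnj8 and Abcc9, and their markers went both ways. Of 13 tested mural markers 2 were higher and 4 lower on day 1, 1 higher and 3 lower on day 3, and 6 higher and 1 lower on day 7. The shares over all tested genes were 24.9% higher and 22.2% lower on day 1, 23.5% and 20.2% on day 3, and 14.9% and 9.92% on day 7. The medians were -0.22, 0.01 and 0.41. The mean level of the 14 listed markers ranged from 6.92 to 7.61 on day 1, 6.80 to 7.67 on day 3 and 7.96 to 8.05 on day 7, against 7.18 to 7.49 in sham. The pericyte marker Rgs5 had differences of -1.78 (adjusted p 0.0225), -2.14 (adjusted p 0.00807) and -0.03 (adjusted p 0.984) on days 1, 3 and 7. The pericyte markers Higd1b (-0.47, -0.52) and Vtn (-0.64, -0.66) were also called lower on days 1 and 3, and Vtn (-0.34) on day 7. In the other direction, Mcam was called higher on all 3 days, at 1.84, 2.72 and 1.80. Cnn1 was called higher on days 1 and 7 (1.65 and 1.71) and Tagln on day 7 (2.52). Pdgfrb, a growth factor receptor of mural cells, had differences of -0.30 (adjusted p 0.409), 0.21 (adjusted p 0.584) and 1.17 (adjusted p 0.0108). The pericyte marker Cspg4 was not above background in sham or on days 1 and 3. Relative to the mural mean, Kcnj8 was lower by exact permutation test on every day, at -1.21, -1.50 and -1.31, and Abcc9 was at -2.46, -2.98 and -2.28 (p 0.0286 for each). Kcnk3, Kcnj11 and Abcc8 were lower relative to it on every day too. On day 7 so were Kcnk1 (-0.72) and Kcnk2 (-0.68), which were not called against sham (exact permutation p 0.0286 each). The mural mean itself rose from 7.30 in sham to 8.00 on day 7, so a row that stays level is lower relative to it. The day 7 value of Kcnj8 therefore does not show a fall by itself. The plain difference of Kcnj8 from sham on day 7 was -0.61 and was not called. The part of mural cells in these results was not tested beyond these values.

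Other genes of these families and their partners are given from lists. The shares of all tested genes to set beside the counts are 24.9%, 23.5% and 14.9% called higher and 22.2%, 20.2% and 9.92% called lower on days 1, 3 and 7. Of 11 other two-pore channel genes 3 were tested and 8 were not above the negative control median on any array. Kcnk6 was higher on day 1 (0.41) and day 3 (0.49), and Kcnk9, which encodes TASK-3, on day 1 (0.42). None was lower. Kcnk9 was dim, with means of 4.83 in sham and 5.25 on day 1. The negative control medians ranged from 4.47 to 4.53 in sham and from 4.69 to 4.87 on day 1. How much of the Kcnk9 difference is a rise in background was not tested. Of 8 two-pore partners 2 were higher and 1 lower on day 1, 3 and 1 on day 3, and 3 and 0 on day 7, with medians of 0.10, -0.01 and 0.03. Bves, a popeye-domain protein that binds TREK-1, had differences of -2.14, -2.03 and -1.20, of which the last had an adjusted p of 0.0584. Arf6, a small GTPase of membrane recycling, was higher by 0.72, 0.83 and 0.66. S100a10, a TASK-1 trafficking partner, was higher by 0.37, 0.64 and 0.39, and the 14-3-3 gene Ywhab had 0.37 (adjusted p 0.12), 0.82 and 0.63.

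Of 8 measured partners and energy-sensing enzymes linked to ATP-sensitive channels, 4, 5 and 0 were lower and 0 higher on days 1, 3 and 7, with medians of -0.81, -0.96 and -0.61. Ckm, the muscle creatine kinase, had differences of -1.61 and -2.58 on days 1 and 3 and -1.09 on day 7 (adjusted p 0.0616). Ak1, an adenylate kinase, had -2.06, -1.87 and -0.91, the last not called (adjusted p 0.161). Prkaa2, a catalytic subunit of AMP-activated kinase, had -1.17, -1.52 and -0.99, the last not called (adjusted p 0.0819). Ckmt2, the mitochondrial creatine kinase of muscle, had -1.11 (adjusted p 0.0885), -1.66 (adjusted p 0.018) and -0.43 (adjusted p 0.642).

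Of 13 other inward rectifiers 6 were tested, and 4, 4 and 2 were lower and 0, 1 and 1 higher on days 1, 3 and 7, with medians of -0.88, -0.87 and -0.54. Kcnj3, a pore subunit of the acetylcholine-gated channel, had differences of -5.26, -4.19 and -2.25, of which the last had an adjusted p of 0.0989. Its partner Kcnj5 had -1.39, -1.34 and -1.17, all called lower. Kcnj2, the main Kir2.1 pore of the resting potential, had -2.44, -2.04 and -0.81, the last not called (adjusted p 0.135). Kcnj12 is 1 of the genes called lower on each day, but it was not above background on days 1, 3 or 7. Its sham mean was 4.61, so no size can be read from these calls. Kcnj15 was called higher on days 3 and 7 but was not above background in sham or on day 3. No size can therefore be read from either call. Of 8 other Abcc transporters 4 were tested, and 2, 2 and 2 were higher and 1, 0 and 0 lower, with medians of 0.14, 0.24 and 0.30. Abcc1, an export pump, was higher by 0.81 and 0.51 on days 1 and 3 and had 0.24 on day 7 (adjusted p 0.16). Abcc5 was lower on day 1 (-0.45) and higher on day 7 (0.36), and Abcc3 was called higher on all 3 days and was not above background in sham.

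The 5 falling genes followed each other over the 16 arrays, which share the infarction and the low values of arrays 13 and 31. Pearson correlations were 0.965 for Kcnk3 with Kcnj11, 0.960 for Abcc9 with Kcnj8, 0.906 for Abcc8 with Kcnj11 and 0.851 for Abcc8 with Abcc9. Taken on deviations from the group means they were 0.890, 0.840, 0.770 and 0.575 in the same order of pairs. This is a description over shared arrays.

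The tested genes with the most similar pattern are named by Pearson correlation over the 16 arrays, with the correlation within groups beside it. The channel genes themselves and clone, RIKEN, Gm-number, LOC and expressed-sequence symbols were passed over, so a more similar row may be unnamed. For Kcnk3 they were Rtn4ip1 (0.989, within groups 0.951), Mavs (0.987, 0.974) and Nprl2 (0.987, 0.942). For Abcc9 they were Egln1 (0.984, 0.954), Vegfb (0.981, 0.932) and Dusp18 (0.980, 0.919). Kcnj8 was most like Dock9 (0.982, 0.963), Kank3 (0.962, 0.942) and Oaz2 (0.954, 0.819). Kcnj11 was most like Taz (0.984, 0.947), As3mt (0.982, 0.935) and Galt (0.982, 0.938). Abcc8 was most like Epha4 (0.980, 0.939), Hspa4l (0.975, 0.916) and Mcrip2 (0.971, 0.879). No name was shared between these 5 groups of 3.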

How the data were processed

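Atrial RNA was measured on 16 single-colour arrays. The authors deposited 1 table of log2 signals. Affymetrix Expression Console is named in the submitters' processing notes. Its background correction, summarisation and scaling settings are not given in the sources used. The labels name a 3′ expression array, but the row names are transcript clusters, so the array design is uncertain. Rows were named through an annotation table: of 72688 rows, 6732 were controls, 30604 had 1 symbol, 2146 several and 33206 none. The row with the highest mean stood for a gene. GRCm38.p6 gene names from RefSeq updated 844 rows.

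Genes above their array's median on at least 4 of 16 arrays were tested, 18419 in all. A model with 1 mean per group was fitted with limma 3.58.1 (lmFit, eBayes with trend) in R 4.3.3, with Benjamini-Hochberg adjustment within each of 6 comparisons. It was tested on simulated data first. Exact permutation tests served single values. A row at or below the negative control median on all arrays of a group counts as not above background in that group. The number of arrays limits precision.

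The channel genes, lists, tests and naming rule were chosen with earlier results of these data known. The rule names all 7 genes, up to 4 called genes per list and the 3 most correlated genes. Among the correlated genes, channel genes and clone, RIKEN, Gm-number, LOC and expressed-sequence symbols are passed over. Rgs5, Higd1b, Vtn, Mcam, Cnn1, Tagln, Pdgfrb, Cspg4, Cmya5, Mybpc3, Sln, Dkk3, Myl7, Nppa and Kcnj12 were singled out after their values were seen. Alternatives were quantile normalisation, median centring, other filters, other eBayes settings, array weights, 2-group fits and left-out arrays. The mural marker mean and the limma fit of relative values were added after seeing the data. Cardiomyocyte markers with a mean above 19, 3 of 15, were left out of the marker mean. Promoter coordinates are those of RefSeq and not of the array.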

Additional observations from a re-analysis of the deposited data

Results flagged for a closer look

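In all, 3 values stood far from the other 3 of their group, with a gap to the nearest value that takes most of the group's range. Kcnj8 on day 1 array 13 was 6.10, against 6.84 to 6.97 on the other day 1 arrays (gap over range 0.853). Kcnj11 on day 3 array 31 was 5.82, against 6.63 to 6.71 on the other day 3 arrays (0.911). Kcnj11 on day 7 array 72 was 7.12, against 6.68 to 6.73 on the other day 7 arrays (0.881). Together 28 sets of 4 values were examined, and chance flags about 1 in 20.

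The difference from sham differed between days for 2 genes. Abcc8 was 0.54 higher on day 7 than on day 1, and Kcnj8 was 0.82 higher on day 7 than on day 3, each past the test of the difference itself. Both calls depend on single arrays, as given with the values above.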

How the results depend on the processing

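All 26 alternatives kept the 5 channel genes called lower on days 1 and 3. Of 390 values of these genes against sham under the alternatives, 390 were negative and 382 stayed on their side of the threshold. Of the other 8, 6 were Kcnj8 on day 7, which became called. On day 7 the count fell to 2 with each array centred on its median, where Abcc8 had an adjusted p of 0.104 and Kcnj11 of 0.0613. Quantile normalisation moved the median of all genes to -0.15 on day 1 and -0.07 on day 3. Counts between days were 2 for days 7 and 1 under quantile normalisation, and 0 for days 7 and 3 under median centring. With array weights they were 2 (days 3 and 1), 2 (days 7 and 3) and 4 (days 7 and 1). Without arrays 13 and 31 together all 3 were 2. With 1 array left out they ranged from 0 to 2, 0 to 2 and 0 to 4 in the same order.

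Some values near 0 that did not pass the test changed sign. Kcnk1 was -0.010 (day 1 against sham), -0.045 (day 3) and 0.0055 (day 7 against day 3) under quantile normalisation. Under median centring it was -0.0034 (day 3), 0.0064 (day 7) and 0.0098 (day 7 against day 3). It was -0.13 and 0.074 for day 3 against sham and day 7 against day 3 with array weights, and -0.12 and 0.099 without arrays 13 and 31. With 1 array left out it ranged from -0.12 to 0.18 (day 3), -0.068 to 0.020 (day 7) and -0.20 to 0.099 (day 7 against day 3). Kcnj11 on day 3 against day 1 was 0.012 under median centring, 0.0068 with array weights and -0.26 to 0.16 with 1 array left out, and Kcnk3 there was -0.083 to 0.68. Abcc8 on day 3 relative to mural instead of cardiomyocyte markers was -0.93. With the median of the cardiomyocyte markers in place of their mean, relative Kcnj8 (0.42), Kcnj11 (0.45) and Abcc8 (0.46) on day 1, Kcnj11 on day 3 (-0.033) and Abcc8 on day 7 (-0.0082) changed sign, none of them called. The cause of these changes was not tested.

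The arrays limit what can be read: 1 of the 7 genes was not above background. Of the others, 4 passed the 95th percentile of the negative controls on at most 1 of 16 arrays. No paired analysis was possible because the groups share no replicate numbers.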
